A study of Mus musculus with 3 samples.

Results

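The genes described here are 10 that encode enzymes of the lysosome, namely the cathepsins Ctsa, Ctsb, Ctsc, Ctsd, Ctsh, Ctsl, Ctss and Ctsz, the protease legumain (Lgmn) and the thiol reductase Ifi30. They were taken from 18193 mouse genes on the arrays, and 21 of the 45101 probe sets carry the symbol of 1 of them alone. They were chosen because most of them read lower in both mutants than in wild type, so their levels and differences are a description of these arrays and not a test. RNA was taken on day 7 from embryoid bodies, balls of embryonic stem cells grown in suspension in which early germ layers and extraembryonic endoderm begin to form. The RQ and MI bodies carried human BRCA1 with a single substitution and the WT bodies carried wild-type human BRCA1, all in mouse cells of strain 129S7/SvEv Brd-Hprt b-m2. The substitution of MI is M1652I. That of RQ is R1699Q in the series design and R1669Q in the label of the array. Each genotype was measured on 1 Affymetrix array, from 6 ug of RNA, so there is no replicate for any genotype and precision is limited by the number of arrays.

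Lysosomes are acidic compartments in which proteins taken up by endocytosis or delivered by autophagy are cut into peptides and amino acids. Cathepsins are their main proteases. Most are cysteine proteases of the papain family, cathepsin D is an aspartic protease and cathepsin A a serine carboxypeptidase. Legumain cuts after asparagine and also processes the precursors of several cathepsins, and Ifi30 (also called GILT) reduces the disulfide bonds of proteins so that they can be degraded. Yolk sac endoderm, which takes up maternal proteins and digests them in lysosomes to feed the embryo, is known for high lysosomal protease activity. Macrophages are another cell type rich in these enzymes.

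Of the 10 genes, 9 read lower in RQ than in WT and the same number read lower in MI than in WT. At least 2-fold lower were 8 of the 10 in RQ, and 6 of the 10 in MI. The 6 genes past 2-fold in both were Ctsa, Ctsc, Ctsh, Ctsz, Lgmn and Ifi30. None was at least 2-fold higher in either. Over all genes read, 1.49% lay 2-fold or more below WT in RQ and 2.44% in MI, while 1.68% in RQ and 0.516% in MI lay as far above it. Because the genes were chosen on these differences, nothing is read from their share against that of all genes. The median difference of the 10 was -1.88 in RQ minus WT, on the log2 scale, and -1.52 in MI minus WT, against 0.01 and 0.06 over all genes read. The exception was Ctss, which was not lower in either mutant. A gene was read where the higher of the 2 arrays compared reached 6.31, the median log2 signal of all probe sets, and where it had several probe sets the one with the highest mean signal stood for it. All 10 genes reached that level on each of the 3 arrays.

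**Figure D1:**
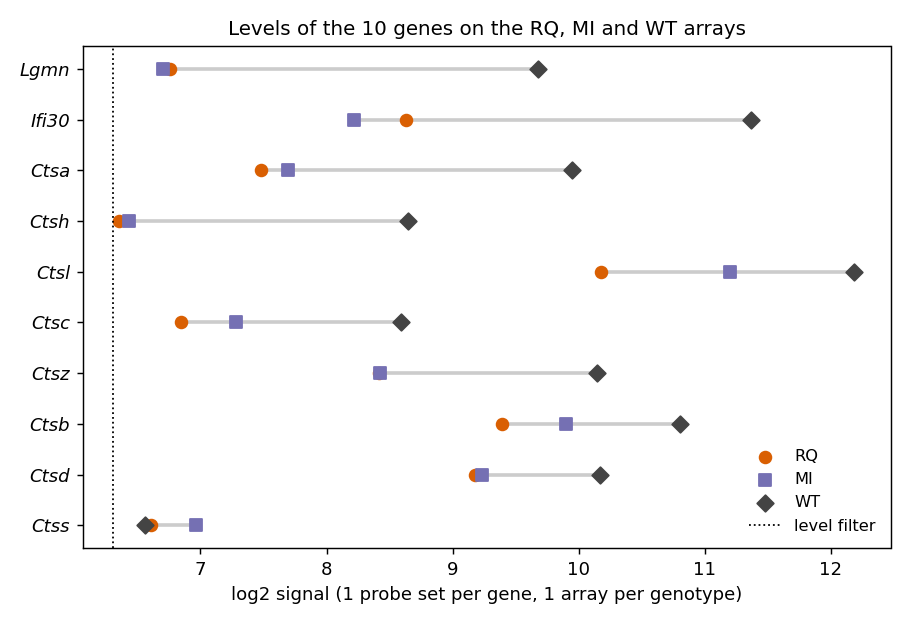
Log2 signal (horizontal axis) of each gene (rows, ordered by RQ minus WT) on the RQ array (circles), the MI array (squares) and the WT array (diamonds), with the level filter of 6.31 as a dotted line. The WT diamond lies to the right of both mutants in 9 of the 10 rows, and for Ctss the MI square lies farthest to the right. Signals of different genes come from different probe sets and are not comparable with each other.

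Among the papain-family enzymes that trim the ends of proteins, Ctsh, an aminopeptidase, had a log2 signal of 6.36 in RQ and 6.43 in MI, against 8.64 in WT. It was 4.88-fold lower in RQ and 4.64-fold lower in MI. Both mutant values lay close to the level filter, where signals are compressed towards background, so these folds can understate the true ratio. Its other probe set read 5.54 in RQ and 5.58 in MI, against 7.01 in WT, and so differed in the same direction. Ctsz, a carboxypeptidase, read 8.41 in RQ and 8.42 in MI, against 10.15 in WT, which is 3.33-fold lower in RQ and 3.31-fold lower in MI. Its 3 probe sets gave differences between -1.77 and -1.69 for RQ and between -1.80 and -1.70 for MI. They were designed on the same transcript and are not separate samples. Ctsc, dipeptidyl peptidase I, which activates the serine proteases of immune cell granules, read 6.84 in RQ and 7.28 in MI, against 8.59 in WT. It was 3.36-fold lower in RQ and 2.48-fold lower in MI. The remaining Ctsc probe sets stayed under the level filter on every array and are not read.

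For Ctsb and Ctsl, broadly expressed papain-family proteases, the MI value stood between those of RQ and WT. The same order held for Ctsa and Ctsc, and by a small margin over RQ for Ctsd, Ctsh and Ctsz. Ctsb, which acts both inside and at the end of protein chains, read 9.39 in RQ and 9.90 in MI, against 10.81 in WT. It was 2.67-fold lower in RQ and 1.87-fold lower in MI. Another Ctsb probe set read 9.17 in RQ and 9.70 in MI, against 10.35 in WT, and a further one read 6.95 in RQ and 7.12 in MI, against 7.69 in WT. All of these had RQ lowest and WT highest, and the other 2 Ctsb probe sets stayed under the filter. Ctsl, an endopeptidase, read 10.17 in RQ and 11.20 in MI, against 12.18 in WT, and was 4.02-fold lower in RQ and 1.97-fold lower in MI. Its other probe set, which was designed on another sequence, read 6.79 in RQ and 6.91 in MI, against 6.85 in WT. The difference of Ctsl thus rests on 1 probe set, whose name marks a match to several transcripts of a gene.

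Ctss, an endopeptidase known mainly from antigen-presenting cells, read 6.61 in RQ and 6.96 in MI, against 6.56 in WT. Its single probe set differed from WT by 0.05 in RQ and 0.40 in MI. The signal lay close to the level filter on all arrays, so a lower level in the mutants may not have been measurable.

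Of the proteases outside the papain family, Ctsd, the aspartic protease that starts the breakdown of many proteins, read 9.18 in RQ and 9.23 in MI, against 10.17 in WT. It was 1.98-fold lower in RQ and 1.91-fold lower in MI, just short of the limit in both. Ctsa, which also holds beta-galactosidase and neuraminidase in a protective complex, read 7.48 in RQ and 7.70 in MI, against 9.95 in WT. This is 5.54-fold lower in RQ and 4.76-fold lower in MI. The second Ctsa probe set read 6.15 in RQ and 6.25 in MI, against 6.34 in WT, close to the filter. Lgmn read 6.76 in RQ and 6.70 in MI, against 9.68 in WT, and was 7.57-fold lower in RQ and 7.87-fold lower in MI. As for Ctsh, both mutant values lay close to the level filter, so these folds can understate the true ratio. Ifi30, the reductase, read 8.63 in RQ and 8.21 in MI, against 11.36 in WT, and was 6.63-fold lower in RQ and 8.86-fold lower in MI. Lgmn and Ifi30 had the largest differences of the 10 genes in both mutants, each from a single probe set. Among all genes read, Lgmn ranked 13 from the lowest and Ifi30 16 of 12226 in RQ minus WT. In MI minus WT, Lgmn ranked 10 and Ifi30 ranked 9 of 12786.

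**Figure D2:**
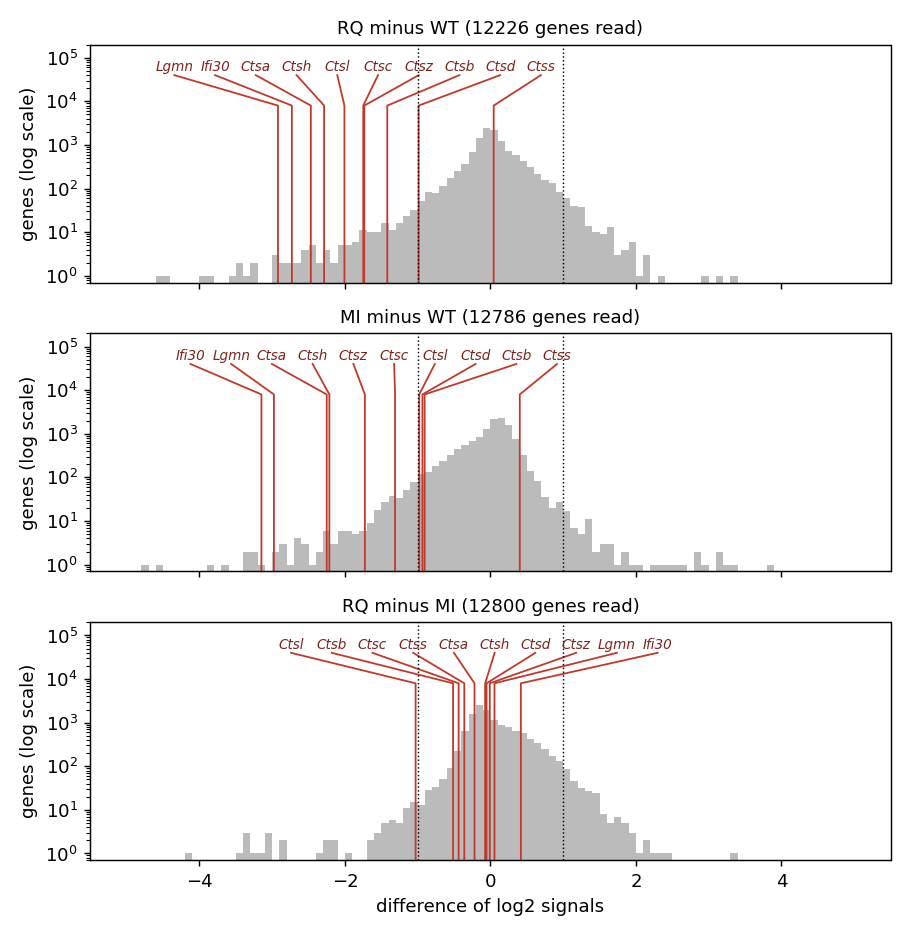
Number of genes (vertical log axis) by the difference of log2 signals (horizontal axis, bins of 0.1) for RQ minus WT, MI minus WT and RQ minus MI, with the 10 genes as red lines and 2-fold differences as dotted lines. In the upper panels 9 red lines lie left of 0 and Ctss lies right of it, while in the lowest panel only Ctsl passes a dotted line. The 3 differences are made from 3 arrays and share them.

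Nearest to the 2-fold limit of RQ minus WT on the inside was Ctsb (-1.42), and just outside it lay Ctsd (-0.99). For MI minus WT, Ctsc (-1.31) lay inside, while Ctsl (-0.98), Ctsd (-0.93) and Ctsb (-0.90) lay just outside. The signals of these 3 genes lay above 9 on each array, and strong signals as a whole read lower on the MI array. The median of all genes with a mean level of 9 to 10 was -0.35 in MI minus WT, and at 11 to 12 it was -0.39, whereas it was 0.03 and -0.04 in RQ minus WT. After a lowess correction of the differences for level, Ctsl was at -0.53, Ctsb at -0.53 and Ctsd at -0.61 in MI minus WT. The same correction left the median of the 10 genes at -1.87 in RQ and -1.35 in MI. Among genes with a WT signal of 8 or more, as 9 of the 10 had, 5.81% lay 2-fold or more below WT in RQ and 10.3% in MI. The share of all genes read that lay so far below WT in MI was 1.54% after a repeated quantile normalization, with 0.852% as far above it.

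Comparing the mutants with each other, 1 of the 10 genes lay 2-fold or more below MI in RQ, against 0.508% of all genes read, and none was 2-fold higher, against 1.98%. The gene was Ctsl (2.04-fold lower in RQ), and its difference was -0.95 when arrays were centred on their medians, short of the limit. Ctsb (-0.51), Ctsc (-0.44) and Ctss (-0.36) were next in the same direction. All 6 papain-family genes had RQ minus MI below 0, although Ctsz (-0.01) and Ctsh (-0.07) hardly differed and Ctsh was at 0.03 after the lowess correction. Ifi30 stood on the other side, with RQ above MI by 0.42, and Lgmn differed by 0.06. The median over the 10 genes was -0.15, against -0.05 over all genes read and 0.30 over genes with a WT signal of 8 or more, which read lower on the MI array.

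**Figure D3:**
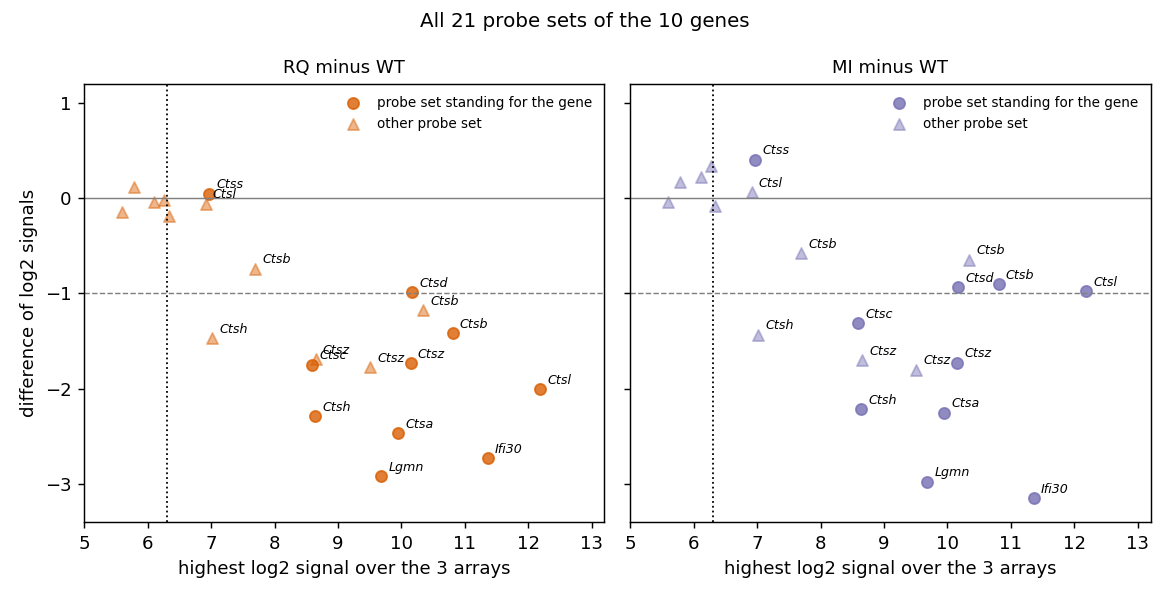
Difference of log2 signals (vertical axis) of all 21 probe sets against their highest signal over the 3 arrays (horizontal axis), for RQ minus WT (left) and MI minus WT (right), with circles for the probe set standing for a gene, triangles for the others, the level filter as a dotted line and the 2-fold limit as a dashed one. The 4 probe sets left of the dotted line, of Ctsb and Ctsc, lie between -0.15 and 0.11 in RQ and near or above 0 in MI. Of the 17 to its right, 12 lie at or below the dashed line in RQ and 9 in MI.

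Lysosomal genes are known targets of the factor TFEB and its relatives Tfe3 and Mitf, which bind elements built on the E-box CACGTG. Promoter windows, the 250 bases before the transcription start, were taken from RefSeq (build GRCm38.p6) and searched on both strands. Windows were found for 8 of the 10 genes, all but Ctsb and Ctsh. CACGTG, which is its own reverse complement, occurred in 3 of the 8 (Ctsd, Ctsl and Ifi30), against 6.02% of all 32851 windows of that length. The longer TCACGTG, which contains it, occurred in 2 of the 8 (Ctsd and Ifi30), against 3.13%. The 10-base consensus known as the CLEAR element, which contains both, occurred in none of the 8, against 0.24%. The general E-box CANNTG, which includes all of these, occurred in 5 of the 8, against 66.2%. The windows of Ctsl and Ctsc overlap the annotated extents of those genes, and that of Ctsa overlaps its neighbour Neurl2. Ctsa and Lgmn have 2 annotated starts each, of which only the outermost was searched, whereas the shares count the windows of all starts. The windows shown are those of Ctsd and Ifi30, which hold CACGTG, that of Lgmn, which had the largest difference in RQ and has no match, and that of Ctss, the gene that was not lower. Capitals mark TCACGTG or CACGTG on either strand. The windows are chr7:142387828-142388077, minus strand for Ctsd, chr8:70766664-70766913, minus strand for Ifi30, chr12:102439729-102439978, minus strand for Lgmn and chr3:95526536-95526785, plus strand for Ctss, each printed 5′ to 3′ on the strand of the gene.
Ctsd: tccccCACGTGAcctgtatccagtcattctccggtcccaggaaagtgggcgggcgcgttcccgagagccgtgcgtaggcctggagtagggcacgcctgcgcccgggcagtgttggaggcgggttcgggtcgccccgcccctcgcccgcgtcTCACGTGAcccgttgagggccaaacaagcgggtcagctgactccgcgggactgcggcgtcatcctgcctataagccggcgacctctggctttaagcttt
Ifi30: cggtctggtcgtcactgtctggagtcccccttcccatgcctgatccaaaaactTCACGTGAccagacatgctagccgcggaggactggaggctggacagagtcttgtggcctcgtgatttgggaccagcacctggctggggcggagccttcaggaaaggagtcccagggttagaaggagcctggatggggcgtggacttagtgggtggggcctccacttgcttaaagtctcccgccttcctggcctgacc
Lgmn: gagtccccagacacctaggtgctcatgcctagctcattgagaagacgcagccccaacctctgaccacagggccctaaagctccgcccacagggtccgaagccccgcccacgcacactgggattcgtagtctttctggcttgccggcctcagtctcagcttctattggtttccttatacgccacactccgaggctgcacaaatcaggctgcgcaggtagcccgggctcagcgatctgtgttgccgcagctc
Ctss: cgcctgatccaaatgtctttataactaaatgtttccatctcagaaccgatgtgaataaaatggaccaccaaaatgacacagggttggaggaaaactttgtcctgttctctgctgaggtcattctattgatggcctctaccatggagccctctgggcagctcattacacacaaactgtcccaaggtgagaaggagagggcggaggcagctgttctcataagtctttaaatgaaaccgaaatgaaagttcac

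The matches of Ctsd began 245 and 98 bases before the start, and that of Ifi30 began 196 bases before it, in a window that the annotated noncoding gene 6330537M06Rik also covers. Of these genes Ifi30 was 6.63-fold lower in RQ, and Ctsd, with its pair of matches, was 1.98-fold lower. Lgmn, with none in the window of the 1 start searched, was 7.57-fold lower. A match in a window is a description of its letters and does not show binding. Tfeb read 8.29 in RQ and 8.41 in MI, against 8.30 in WT. Tfe3 was at -0.23 in RQ minus WT and -0.40 in MI minus WT, while Mitf lay on the other side of 0, with 7.32 in RQ and 7.54 in MI, against 7.10 in WT. Of the 7 genes read in a list of these factors and their regulators, none was 2-fold different in either mutant, and the medians were -0.24 in RQ and -0.41 in MI. The lysosomal GTPase gene Rragc had the largest difference of that list, -0.85 in MI, and was at -0.28 in RQ.

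Other lysosomal genes were described by lists. Beside their counts, 1.49% of all genes read in RQ and 2.44% in MI lay 2-fold or more below WT. Among genes with a WT signal of 8 or more these shares were 5.81% and 10.3%. A list gene that passed the level filter through 1 array alone had to differ, so the counts and medians over the genes read are no support for a difference. Of 15 further cathepsin genes, 6 reached the level filter in MI or WT and 5 in RQ or WT, none differed 2-fold from WT, and the medians were -0.005 in RQ and 0.19 in MI. The largest difference was that of Ctsw (0.27 in MI). In WT, 5 of the 6 lay less than 2-fold above the filter, which can leave little room for a lower level. Among 5 other lysosomal peptidases read, none passed 2-fold, and the medians were -0.18 in RQ and -0.05 in MI. Tpp1, which removes tripeptides, came closest with -0.83 in RQ and -0.99 in MI. Of the cathepsin inhibitors, 2 of 7 read lay 2-fold or more below WT in RQ and 1 of 9 did in MI, while the medians were 0.04 and 0.13. Cst3, the secreted inhibitor cystatin C, read 8.31 in RQ and 8.48 in MI, against 10.04 in WT. Cstb, the intracellular inhibitor cystatin B, read 9.98 in RQ and 11.16 in MI, against 11.55 in WT. Like Ctsl, Cstb was thus lower in RQ than in MI by more than 2-fold (-1.18), and its difference in MI minus WT was -0.39.

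Of 13 genes read in a list of lysosomal enzyme sorting and related proteins, 1 was at least 2-fold lower in RQ and 2 in MI. The medians were -0.05 and -0.17. Over all genes read, 1.49% in RQ and 2.44% in MI were as far below WT. Psap, the precursor of the saposins that help lipid-degrading enzymes, was at -1.03 in RQ and -0.99 in MI. Gga2, a sorting adaptor, was at -0.91 in RQ and -1.46 in MI, and Scarb2, which carries glucocerebrosidase, at -0.91 and -1.30. The mannose 6-phosphate receptor M6pr, to which most cathepsins bind on their way, was at -0.27 in RQ and -0.56 in MI. Of the 17 V-ATPase subunits, the proton pump that acidifies lysosomes, 3 were at least 2-fold lower in each mutant, with medians of -0.23 in RQ and -0.60 in MI. The MI median was -0.26 after the lowess correction. Atp6v0b led them with -1.32 in RQ and -1.46 in MI.

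Of 21 lysosomal hydrolases and membrane proteins read, 2 were at least 2-fold lower in each mutant, 1 was 2-fold higher in RQ and none in MI. The shares of all genes read were 1.49% lower and 1.68% higher in RQ, and 2.44% lower and 0.516% higher in MI. Among genes with a WT signal of 8 or more, 5.81% in RQ and 10.3% in MI were 2-fold lower. The medians of -0.11 in RQ and -0.09 in MI lay closer to 0 than those of the 10 proteases and reductase, whose choice used these differences. In WT, 12 of the 21 lay less than 2-fold above the filter. Hexa, a subunit of hexosaminidase, was at -1.71 in RQ and -1.62 in MI, and Lamp2, a protein of the lysosomal membrane, was at -1.10 in RQ and -0.18 in MI. Asah1, the acid ceramidase, was at -0.91 in RQ and -1.12 in MI. Manba, the beta-mannosidase, was the gene that was higher in RQ, and read 9.88 in RQ and 6.57 in MI, against 6.55 in WT.

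**Figure D4:**
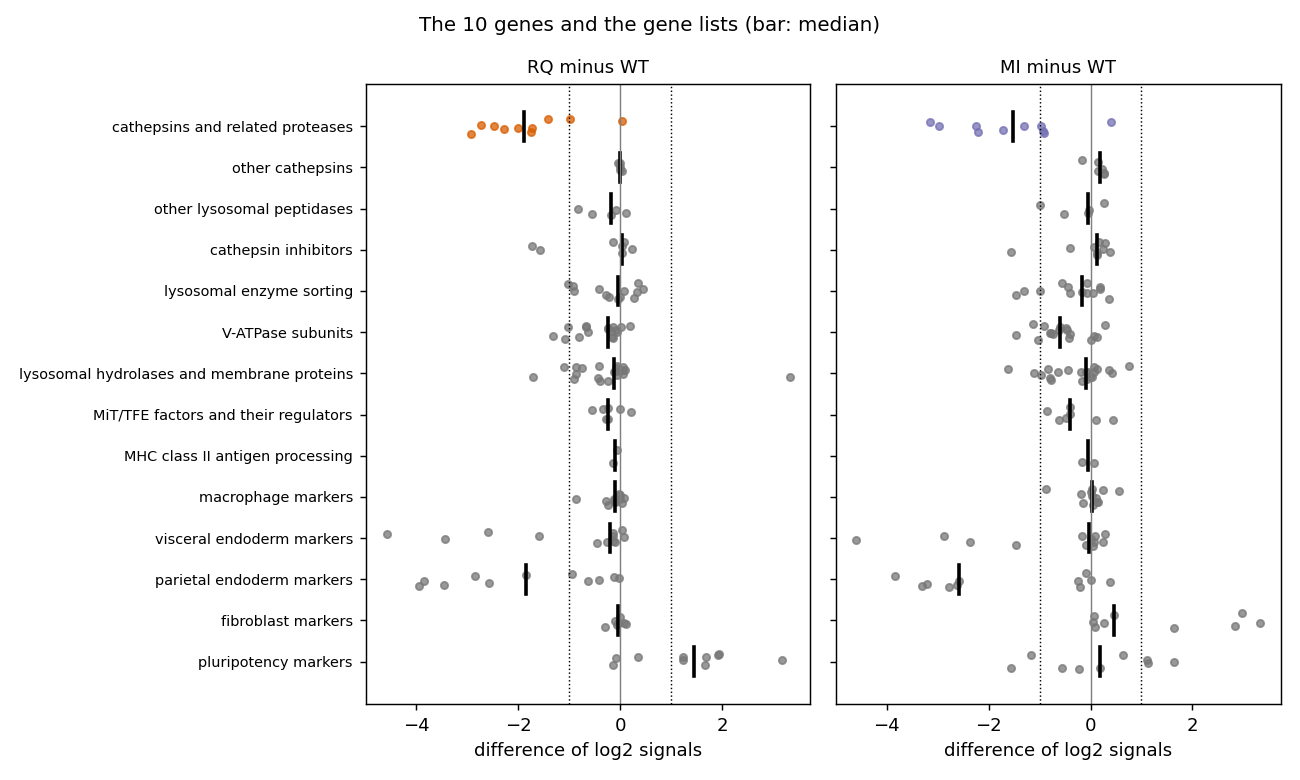
Difference of log2 signals (horizontal axis) for the 10 genes (top row, coloured) and for the read genes of 13 lists (grey points), in RQ minus WT (left) and MI minus WT (right), with the median of each row as a black bar and 2-fold differences as dotted lines. Among the lists, the parietal endoderm markers have the lowest medians in both panels (-1.85 in RQ and -2.58 in MI). Without the level filter these are -0.94 in RQ and -0.24 in MI, where that of the V-ATPase subunits is lower (-0.60).

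Markers of cell types known for lysosomal proteases were read beside the 10 genes. Over all genes read, 1.49% in RQ and 2.44% in MI lay 2-fold or more below WT. Of the 15 visceral endoderm markers on the arrays, 4 were at least 2-fold lower in each mutant, namely Cubn, Dab2, Lrp2 and Amn, all of the cubilin and megalin uptake system. All of these lay under the level filter in RQ, and all but Dab2 did in MI, so they were read through WT alone and the size of their differences is not given. Over the 12 markers read the median was -0.21 in RQ and -0.04 in MI, and it was -1.59 and -0.73 with a level filter of 6.92. No other marker of the list differed 2-fold, among them Afp (-0.14 in RQ and 0.24 in MI), Hnf4a (0.04 and 0.10) and Sox17 (-0.26 and 0.01). In WT, 9 of the 12 read lay less than 2-fold above the filter, which can leave little room for a lower level. Amn was among these 9. The summed linear signal of the 15 markers was 1272 in RQ and 1465 in MI, against 4069 in WT. It includes Cubn, Dab2, Lrp2 and Amn, so it is no measure of the list as a whole. Of the 13 parietal endoderm markers on the arrays, 6 were at least 2-fold lower in each mutant, such as Sparc (-3.85 in RQ and -3.21 in MI) and Col4a1 (-2.84 and -2.78). Lama1 was another, but lay under the filter in both mutants, with 5.98 in RQ and 6.11 in MI, against 9.93 in WT. No other parietal marker differed 2-fold, among them Pdgfra (-0.03 in RQ and 0.38 in MI), Snai1 (-0.41 and -0.10) and Nid1 (-0.94 and -0.20). The summed signal of the 13 markers was 2225 in RQ and 2638 in MI, against 13801 in WT. It includes the 6 lower genes, so it is no measure of the list as a whole. The part of these cell types in the difference of the cathepsins was not tested. In such bulk samples fewer cells of a type and less RNA per cell cannot be told apart.

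None of the 12 macrophage markers read was 2-fold lower or higher in either mutant. In WT, 10 of the 12 lay less than 2-fold above the level filter, so a lower level may not have been measurable for most of them. The medians were -0.10 in RQ and 0.04 in MI, and the summed signal of all 16 was 1543 in RQ and 1709 in MI, against 1681 in WT. Itgam, Fcgr3, C1qa and C1qc stayed under the level filter on each array. Cd68, a lysosomal membrane protein of macrophages, read 6.29 in RQ and 6.29 in MI, against 7.16 in WT. Both mutant values lay under the level filter, so Cd68 was read through WT alone and no difference is read from it. The genes of MHC class II processing, the pathway in which Ctss, Lgmn and Ifi30 act in antigen-presenting cells, lay below the filter on every array in 7 of 9 cases, Cd74, H2-Aa and Ciita among them. Of the 12 fibroblast markers on the arrays, 4 (Dcn, S100a4, Vim and Col1a2) were at least 2-fold higher in MI, against 0.516% of all genes read. S100a4 lay under the filter in WT and was read through MI alone. The other fibroblast markers did not differ 2-fold, such as Col1a1 (0.46 in MI minus WT) and Col3a1 (0.09). The summed signal of the 12 was 1019 in RQ and 4184.5 in MI, against 1087 in WT, and includes the 4 higher genes. The pluripotency markers summed to 20769 in RQ and 9874 in MI, against 9761 in WT. The like sums of MI and WT hide opposed differences. Of 9 read in MI or WT, 3 were at least 2-fold higher in MI (Nanog, Klf4 and Dppa2), against 0.516% of all genes read. Another 2 were at least 2-fold lower (Pou5f1 at -1.17 and Utf1 at -1.56), against 2.44%, and the median was 0.19. In RQ 7 of 10 were at least 2-fold higher, against 1.68% of all genes read, with a median of 1.45. Of the 7, 1 (Nr0b1) lay under the filter in WT. The part of the fibroblast or the pluripotency markers in the cathepsin levels was not tested.

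The genes whose pair of differences lay nearest to the median pair of the 10 were sought among 12031 others read in both comparisons. They were Psenen (-1.92 in RQ and -1.42 in MI, at a distance of 0.11), Cst3 (-1.73 and -1.56), Hcfc1r1 (-2.03 and -1.45), Hexa (-1.71 and -1.62), Chaserr (-1.73 and -1.66) and Srp54b (-1.72 and -1.38). The measure is the Euclidean distance in log2 units over the 3 arrays, and both differences use the same WT array.

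The arrays themselves differed in ways that touch these values. The 18 hybridization spike probe sets, which read control RNAs added to each sample, were lower on the mutant arrays, with medians of -0.64 in RQ minus WT (-1.38 to -0.42) and -0.80 in MI minus WT (-1.48 to -0.36). The median log2 signal was 6.28 in RQ and 6.35 in MI, against 6.29 in WT, and the SD over probe sets was 1.17 in RQ and 1.06 in MI, against 1.17 in WT. In RQ minus WT all of the 9 lower genes but Ctsd lay below the lowest spike. In MI minus WT Ctsa, Ctsh, Ctsz, Lgmn and Ifi30 did, and Ctsb, Ctsc, Ctsd and Ctsl lay within the range of the spikes. The part of the spikes' difference in these values was not tested.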

How the data were processed

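Total RNA of 3 embryoid body samples was labelled and hybridized to Affymetrix mouse arrays, 1 per genotype, per the labels. The deposited values are log2 signals of 45101 probe sets, and Partek and RMA (background subtraction, normalization and summary of probes) appear in the submitters' processing notes with neither version nor order. Joint normalization with other arrays is not given in the sources, and scanner files, detection calls and scan batches were not used here.

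The platform annotation named the probe sets, of which 34945 had 1 gene symbol and 932 several. The 64 control probe sets were kept apart. Differences of log2 values, the 2-fold limit and the level filter (6.31) were computed in Python 3.11.15 with pandas 2.3.3, and the lowess correction (span 0.3, 3 iterations) with statsmodels 0.14.6. The counting was tested on simulated data. With 1 array per genotype no test was made and there are no p-values. The members and the 13 lists (186 entries, 177 on the arrays by symbol) were chosen with earlier results of these data known. Named list genes are mainly the up to 4 with the largest difference per list. Genes named beyond that rule were chosen after their values were seen. They are Tfeb, Tfe3, Cd74, H2-Aa, Ciita, Itgam, Fcgr3, C1qa, C1qc, those named to complete a count and markers named as not 2-fold different.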

Additional observations from a re-analysis of the deposited data

How the results depend on the processing

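The alternatives were a lowess correction, repeated quantile normalization, centring of arrays at the median, a level filter of 6.92 (percentile 75) or none, means of probe sets, leaving out probe sets that may match several transcripts, and limits of 1.5-fold and 3-fold. The count of genes past 2-fold below WT in RQ was 8 and ranged from 6 to 9 at that limit, while the share of all genes read ranged from 1.0% to 2.48%. In MI the count was 6 and ranged from 5 to 7, while the share ranged from 1.54% to 4.15%. The 10 genes were chosen on these differences, so the counts are no support for them. Without probe sets that may match several transcripts only 8 genes were left, of which 6 passed in RQ and 5 in MI. The shares of all genes read were then 1.44% and 2.22%. At the 1.5-fold limit 9 genes passed in RQ and 9 in MI, against 4.34% and 8.04% of all genes read. At 3-fold 7 and 5 passed, against 0.613% and 0.54%. With means of probe sets, which mix in those near background, the median of RQ minus WT was -1.18. Ctsl was the 1 gene past 2-fold lower in RQ than in MI, against 0.508% of all genes read. That count became 0 with centred arrays, with means of probe sets, without probe sets that may match several transcripts and at 3-fold. Without such probe sets Ctsd and Ctsz had none left, and Ctsl was read by its other probe set (-0.06 in RQ and 0.06 in MI). Of 199 differences of single genes under these alternatives, 15 moved by more than 1.5-fold or crossed the 2-fold limit, and no difference past 2-fold changed sign. Of 182 list medians, 12 moved as far, all of the endoderm and fibroblast markers and the cathepsin inhibitors. The median of the parietal endoderm markers ranged from -2.57 to -0.94 in RQ and from -2.65 to -0.24 in MI, and that of the visceral endoderm markers from -1.59 to -0.20 in RQ and from -0.73 to -0.04 in MI. That of the inhibitors in RQ was -1.57 with the filter at 6.92, over 3 genes, and that of the fibroblast markers in MI was 2.90, over 4. No paired analysis was possible because each genotype has 1 array.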

Other observations

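The genes that flank the 10 on the chromosome were read as well, a choice made after the data were seen, with the order of genes taken from the RefSeq table. Of 20 flanking protein-coding genes on the arrays, 12 reached the level filter. None of these lay 2-fold or more below WT in RQ (1.49% of all genes read) and 1 did in MI (2.44%), with medians of -0.09 and -0.18. That gene was Pltp, the phospholipid transfer protein next to Ctsa, with 8.10 in RQ and 7.88 in MI, against 8.98 in WT. Fdft1, the squalene synthase gene next to Ctsb, read 8.71 in RQ and 8.56 in MI, against 9.37 in WT. The neighbours of Lgmn and Ifi30 stayed closer to WT, such as Golga5 (-0.09 in RQ and -0.28 in MI) beside Lgmn and Mpv17l2 (-0.29 and -0.19) beside Ifi30. A further probe set that is annotated to both Ifi30 and its neighbour Pik3r2 was left out of the counts, and read 5.99 in RQ and 6.11 in MI, against 6.25 in WT, below the level filter on each array.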
